A study of Mus musculus with 24 samples.

Results

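Liver RNA was compared between circadian times CT10 and CT14, the late resting phase and the early active phase of the mouse day. Circadian time (CT) counts the hours of the internal day in mice kept in constant darkness. The 8 libraries of these 2 time points were chosen by their labels out of 24 liver libraries, which cover 6 time points, and each time point held 2 libraries of wild-type (WT) mice and 2 of ΔRRE mice. All were from male C57BL/6 mice. The ΔRRE mice carried a homozygous deletion, made with CRISPR/Cas9, of both RREs at Bmal1, the binding sites through which ROR proteins activate and REV-ERB proteins repress this gene, and by the study's methods 1 mutant line was used. WT mice had the intact sites, and the labels name no treatment for either genotype. The study's methods give n = 2 per genotype and time point. Neither the labels nor the RNA-seq methods say whether the 2 libraries came from different mice, and they give no pairing between time points and no age, so p-values measure the spread between these libraries, which may be in part technical. For RNA from mouse tissues in general, the study's methods give an age of 8 to 24 weeks. The age behind each library is not given.

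In the liver, the hours around the start of activity join 2 kinds of signals. The clock inside each cell runs on the BMAL1-CLOCK pair, which binds E-box sequences and switches on the Per, Cry, Rev-erb and Dbp genes. PER and CRY proteins then repress BMAL1-CLOCK, and REV-ERB proteins repress Bmal1 and Cry1 through RREs. Body temperature, feeding, insulin and glucocorticoid hormone also vary between rest and activity, and genes such as those for heat shock proteins, for fatty acid synthesis and for glucocorticoid-induced regulators respond to them. None of these signals was measured in these libraries.

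The values were FPKM (fragments per kilobase of transcript, scaled to the library's number of fragments) of 54733 genes, of which 11244 were tested, those whose mean over the 24 libraries was 1 FPKM or more. Changes are log2 differences of FPKM + 0.1, CT14 minus CT10, from limma with genotype as a term, and a gene is said to have risen or fallen where the Benjamini-Hochberg adjusted p over these 11244 genes was under 0.05. On this scale the change of genes with low FPKM is understated. The FPKM of a library summed to between 556432 and 612090, and 18869 to 20104 genes were above 0. Read counts were not used here, so the depth behind a value is unknown. Markers of hepatocytes (summed 32900 to 48900 FPKM, 7 genes) stood far above those of Kupffer cells (36 to 93.4 FPKM) and of sinusoidal endothelium (31.7 to 48.3 FPKM, 8 genes each). In bulk tissue, fewer cells of a type and less RNA per cell cannot be told apart. No tested member of 13 marker lists for liver and blood cell types rose or fell between the time points. Some lists had few tested members (0 of 8 for T and NK cells, 1 for neutrophils and for pancreas acinar cells, 2 for adipocytes), so stable cell shares are not shown. All 6 tested stellate cell markers had a change above 0 (median 0.51, and 0.29 without ΔRRE CT14 replicate 1), and all 5 tested erythroid markers had one below 0 (median -0.26). Replicates correlated with r between 0.955 and 0.967 across genes. The library of replicate 1 of ΔRRE at CT14 stood apart on the second principal component (-0.744, where this component held 21.3% of the variance). Its summed markers were higher for neutrophils (13.3 FPKM against 0.734 to 3.2 in the other 7 libraries), for B and plasma cells (102 FPKM against at most 53.4) and for stellate cells (106 FPKM against at most 81.7). The sum of the adipocyte list was lower (229 FPKM against at least 480). That sum was nearly all Car3 (222 FPKM in this library and 475 to 1947 FPKM in the other 7), so it rests on 1 gene and is no measure of adipocytes. Summed erythroid markers ranged from 708 to 4320 FPKM at CT10 and from 466 to 4450 FPKM at CT14, and of the 8 pancreas acinar markers 5 were at 0 in all 8 libraries. The part of these differences in the results was not tested, and counts without this library are given below.

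Between CT10 and CT14, 327 of 11244 genes (2.91%) changed, 168 upward (1.49%) and 159 downward (1.41%). Counts in the gene lists below are to be read beside these shares. The median change was 1.09 for the genes that rose and -0.92 for those that fell, and 167 genes changed at least 2-fold, 100 of them upward. The smallest change called was 0.46 in size. At an unadjusted p under 0.05 there were 2150 genes (19.1%). Without any model, the 4 libraries of CT14 all lay above the 4 of CT10 in 721 genes (6.41%) and all below in 667 genes (5.93%), and 317 of the 327 called genes were among these. The number of calls depended on single libraries. It was 70 without WT CT10 replicate 1, 282 without WT CT10 replicate 2, 75 without WT CT14 replicate 1 and 188 without WT CT14 replicate 2. It was 61 and 58 without ΔRRE CT10 replicate 1 and 2, 184 without ΔRRE CT14 replicate 1, and 85 without ΔRRE CT14 replicate 2. All 327 genes kept their direction in these 8 fits. The missing overlap in 317 of them largely fixes this, so it is no separate support for the calls. In each of the 8 fits 42 of the genes were called.

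**Figure D1:**
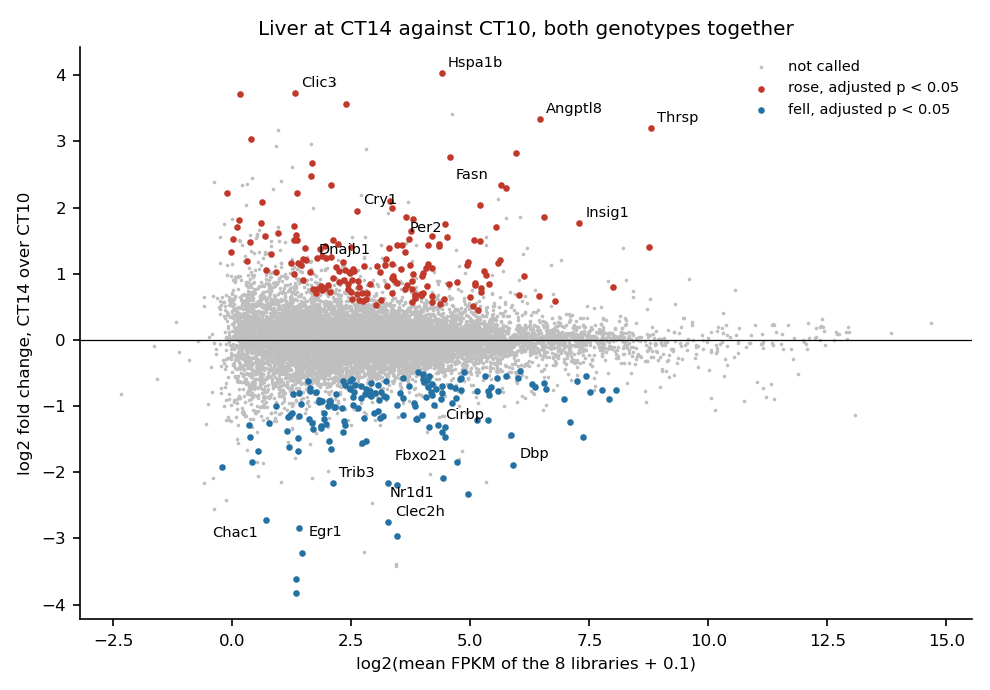
Change between CT10 and CT14 (vertical axis, log2, CT14 over CT10) against the mean level (horizontal axis, log2 of mean FPKM of the 8 libraries + 0.1) for the 11244 genes tested; red points are the 168 genes that rose and blue points the 159 that fell at an adjusted p under 0.05. Heat shock and lipid synthesis genes are named among the rises, and Dbp, Nr1d1, Fbxo21 and Egr1 among the falls.

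The clock list held 18 genes, of which 17 were tested. Among them Cry1 and Per2, the repressors, rose, and Dbp, Nr1d1 (REV-ERBα) and Nr1d2 (REV-ERBβ) fell. The median change over the 17 genes was -0.12, beside 0.00 over all genes tested, since members moved both ways. In 4 of the 17 genes all CT14 libraries lay above all CT10 libraries, and in 5 all lay below, beside 6.41% and 5.93% of all genes tested.

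Cry1 (chr10:85131700-85185064, GRCm38) encodes the late repressor of BMAL1-CLOCK. At CT10 it was at 2.63 and 2.98 FPKM in WT and at 1.90 and 2.18 FPKM in ΔRRE. At CT14 it stood at 11.7 and 7.19 FPKM in WT and at 10.1 and 9.83 FPKM in ΔRRE. All CT14 libraries were above all CT10 libraries, and the change was 1.96 ± 0.19 (SE; limma, adjusted p = 0.00455, n = 4 against 4). The rise was called whichever of the 8 libraries was left out.

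Per2, another repressor of BMAL1-CLOCK, went from 6.12 and 9.59 FPKM in WT and 5.06 and 4.70 FPKM in ΔRRE to 16.3 and 16.0 FPKM in WT and 14.2 and 21.2 FPKM in ΔRRE. The groups did not overlap, with a change of 1.44 ± 0.21 (SE; limma, adjusted p = 0.0184). The call was lost without WT CT10 replicate 1 or either ΔRRE CT10 library. Per1 and Per3, the paralogs of Per2, did not pass the test, with changes of -0.12 (adjusted p = 0.676) and -0.45 (adjusted p = 0.115).

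Dbp is an activator at D-box sequences and a direct output of E-boxes. It had the highest level of the called clock genes at CT10, with 101 and 108 FPKM in WT and 107 and 58.5 FPKM in ΔRRE, and fell to 21.2 and 29.4 FPKM in WT and 34.0 and 17.2 FPKM in ΔRRE. The change was -1.88 ± 0.26 (SE; limma, adjusted p = 0.0132), and the fall was called in each of the 8 fits that left out a library. Dbp overlaps Sphk2 on the other strand, and whether strand was used in the authors' counting is not given in the sources used here.

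Nr1d1, a repressor at RREs, fell from 42.5 and 20.1 FPKM in WT and 50.4 and 26.9 FPKM in ΔRRE to 12.1 and 7.21 FPKM in WT and 5.86 and 6.64 FPKM in ΔRRE. Its change was -2.09 ± 0.32 (SE; limma, adjusted p = 0.0211), and it overlaps Thra on the other strand. Nr1d2 fell less, by -0.96 ± 0.19 (SE; limma, adjusted p = 0.035), from between 23.9 and 39.5 FPKM to between 12.2 and 19.1 FPKM. The call of Nr1d1 was lost without WT CT10 replicate 1 or replicate 2 of ΔRRE at CT10 or CT14, and that of Nr1d2 held in only 1 of the 8 fits.

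Bmal1 (Arntl in the files), the gene with the deleted sites, checks the labels. In WT it was at 0.195 and 0.0919 FPKM at CT10 and at 2.21 and 1.15 FPKM at CT14. In ΔRRE it was at 2.50 and 2.1 FPKM at CT10 and at 2.59 and 2.49 FPKM at CT14. Both WT libraries at CT10 were thus below every other library, a change of 2.84 in WT and of 0.14 in ΔRRE. The difference between the genotypes had an unadjusted p of 0.0018 and an adjusted p of 1 in limma, and the change with both genotypes together did not pass (1.49 ± 0.53, SE, adjusted p = 0.168). The other clock genes did not pass either. Nfil3 (E4BP4), a repressor at D-boxes, had a change of 1.25 with no overlap between the groups (limma, adjusted p = 0.0709), and Tef, an activator at D-boxes, of -0.36 (adjusted p = 0.101).

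Over the 6 time points, Cry1 had its lowest mean at CT6 in WT (1.83 FPKM) and at CT10 in ΔRRE (2.04 FPKM), and its highest at CT22 in WT (16.4 FPKM) and at CT18 in ΔRRE (18.9 FPKM). Dbp peaked at CT10 in both genotypes (104 FPKM in WT and 82.7 FPKM in ΔRRE) and was at 3.3 FPKM in WT and 2.71 FPKM in ΔRRE by CT18. Per2 was highest at CT18 in WT (17.8 FPKM) and at CT14 in ΔRRE (17.7 FPKM). The step from CT10 to CT14 is therefore part of the rise of Cry1 and Per2 and of the descent of Dbp. Bmal1 ran between 0.143 and 12.9 FPKM in WT and between 2.3 and 3.61 FPKM in ΔRRE.

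**Figure D2:**
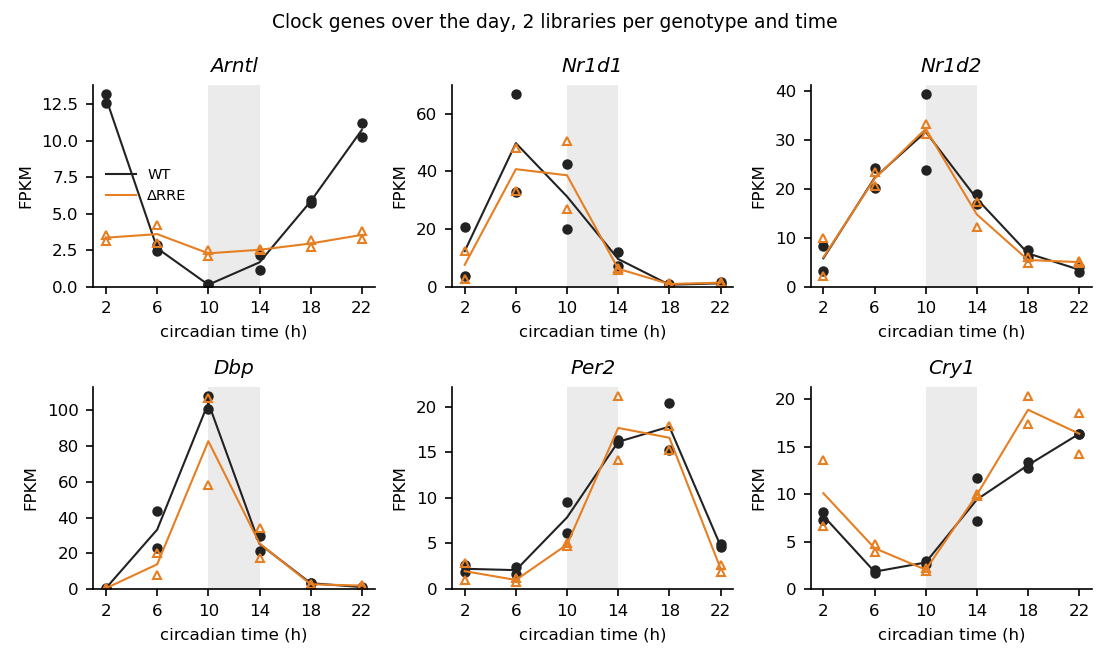
Level in FPKM (vertical axis) of Arntl (Bmal1), Nr1d1, Nr1d2, Dbp, Per2 and Cry1 at 6 circadian times in hours (horizontal axis); points are single libraries (WT black circles, ΔRRE orange triangles), lines join the means of 2 libraries, and the grey band spans CT10 to CT14. Dbp falls and Cry1 and Per2 rise within the band in both genotypes, while Arntl is near 0 at CT10 in WT alone.

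Of the 327 called genes, the heat shock gene Hspa1b had the largest rise. Heat shock proteins are chaperones that refold damaged proteins, and their transcription responds to temperature through heat shock factor 1. Of 20 members tested, 10 rose and 0 fell, beside 1.49% and 1.41% of all genes tested. All 20 had a change above 0, from 0.13 (Hspa4) to 4.04 (Hspa1b). The median change was 1.15, beside 0.00 over all genes tested. In 14 of 20 all CT14 libraries lay above all CT10 libraries, beside 6.41% of all genes tested. The medians were 0.995 in WT and 1.20 in ΔRRE. Without ΔRRE CT14 replicate 1 the count was again 10. It was 4 without replicate 1 of WT at either time or without either ΔRRE CT10 library, and 8 without ΔRRE CT14 replicate 2.

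Hspa1b (chr17:34956436-34959238, GRCm38), a stress-induced HSP70, went from 2.24 and 4.48 FPKM in WT and 0.996 and 1.26 FPKM in ΔRRE to 44.3 and 33.9 FPKM in WT and 10.9 and 69.7 FPKM in ΔRRE. That was a change of 4.04 ± 0.52 (SE; limma, adjusted p = 0.0101), or 16.4-fold. The lowest CT14 value was in the ΔRRE library that stood apart. Its neighbour Hspa1a (chr17:34969190-34972156), which encodes nearly the same protein, was at 0.438 to 0.988 FPKM at CT10 and at 2.69 to 15.4 FPKM at CT14 (3.56 ± 0.45, SE, limma, adjusted p = 0.0101). Reads of these near-identical copies may have been split between them, so the level of each is uncertain.

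Hsph1, a HSP110 that exchanges the nucleotide of HSP70, was at 4.92 and 10.6 FPKM in WT and 4.2 and 4.49 FPKM in ΔRRE at CT10. At CT14 it reached 43.2 and 39.4 FPKM in WT and 21.3 and 61.4 FPKM in ΔRRE, a change of 2.76 ± 0.34 (SE; limma, adjusted p = 0.00943). Dnajb1, the HSP40 that delivers clients to HSP70, had a narrower spread. It was between 4.47 and 6.21 FPKM at CT10 and between 12.0 and 16.3 FPKM at CT14 (1.39 ± 0.15, SE, limma, adjusted p = 0.00673). These 4 genes were called whichever library was left out.

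The other 6 that rose were Hsp90aa1, the inducible HSP90 (1.71), Bag3 (1.44) and Hspa8 (1.41), which work with HSP70 proteins, Stip1, which links HSP70 to HSP90 (1.17), and the HSP90 partners Chordc1 (1.13) and Fkbp4 (0.96). Their adjusted p in limma lay between 0.0172 (Bag3) and 0.0271 (Fkbp4), and the call of each was lost on leaving out replicate 1 of WT at CT10 or CT14, or either ΔRRE library of CT10. Hspa8 was the most abundant on the FPKM scale, with 188 to 312 FPKM at CT10 and 437 to 834 FPKM at CT14. The mitochondrial chaperone Hspd1 and the chaperonin subunit Cct2 had changes of 0.14 each (adjusted p = 0.509 and 0.520).

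Heat shock factor 1 binds inverted repeats of GAA. Sequences around such repeats in the upstream windows of 4 of these genes are shown because members of the list rose together. They were read from RefSeq promoter windows on GRCm38.p6 (250 bases before and 50 after the start), on the minus strand of the genome and 5′ to 3′, with the repeat in capitals.
Hspa1a, chr17:34972233-34972280: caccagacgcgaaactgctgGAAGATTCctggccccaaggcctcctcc
Hspa1b, chr17:34959315-34959362: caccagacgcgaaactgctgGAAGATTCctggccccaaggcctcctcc
Hsph1, chr5:149636342-149636389: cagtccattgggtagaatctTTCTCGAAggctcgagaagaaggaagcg
Fkbp4, chr6:128438780-128438827: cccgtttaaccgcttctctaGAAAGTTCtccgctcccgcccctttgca
The repeats began 104, 104, 33 and 151 bases before the start. The 250 upstream bases of Hspa1a and Hspa1b were equal at 247 positions (98.8%). A repeat of 2 units (GAANNTTC or TTCNNGAA, which read the same on both strands) was found in the windows of 11 of 16 heat shock genes with a window (68.8%) and of 6 of 8 that rose. Over all tested genes with a window the share was 14.2% of 8226. It was 15.7% among genes that rose (20 of 127) and 16.9% among genes that fell (20 of 118). A repeat of 3 units (GAANNTTCNNGAA), each of which also counts as a repeat of 2 units, was in 4 of the 16 windows and in 0.584% of all. The motifs were chosen after the values of these genes were known, and a match is not a measured site.

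**Figure D3:**
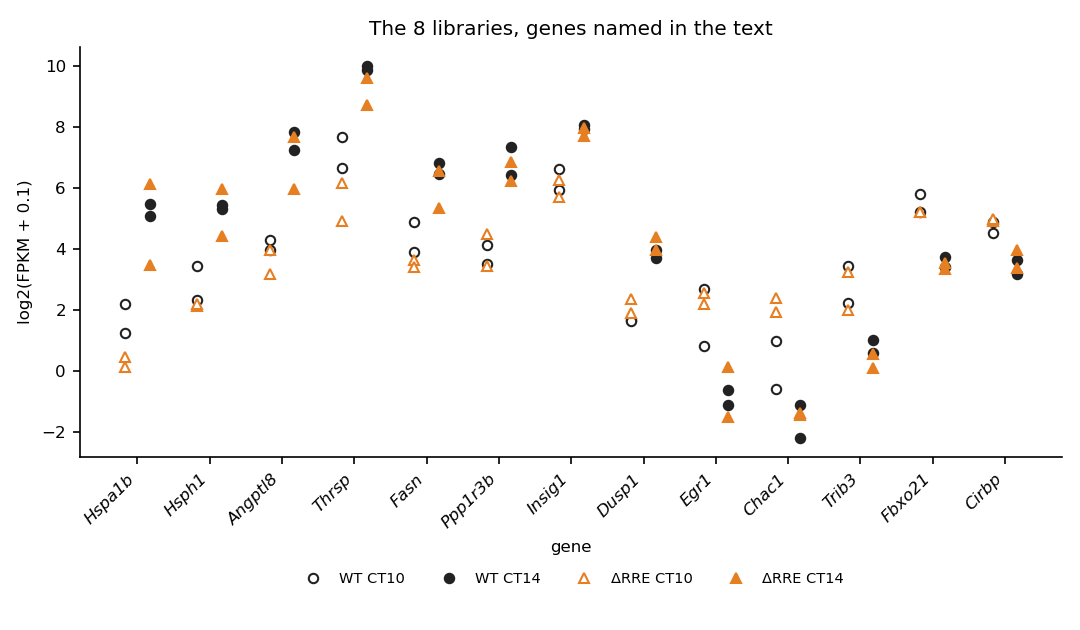
Level in each of the 8 libraries (vertical axis, log2 of FPKM + 0.1) of 13 genes named in the text (horizontal axis); circles are WT, triangles ΔRRE, open points CT10 and filled points CT14, with 2 libraries per genotype and time. The open and filled points of a gene do not overlap. From Hspa1b to Insig1 the lowest filled point is always ΔRRE CT14 replicate 1, the library that stood apart on the second principal component.

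Of 4 genes in a list named for cold-inducible RNA-binding proteins, Cirbp and Srsf5 fell and 0 rose. The list also holds splicing factors such as Srsf5, so its count is no measure of cold-inducible genes alone. Cirbp, which is induced when temperature drops, fell from 29.2 and 22.5 FPKM in WT and 29.9 and 31.5 FPKM in ΔRRE to 12.2 and 8.88 FPKM in WT and 15.4 and 10.2 FPKM in ΔRRE. The groups did not overlap (-1.29 ± 0.17, SE, limma, adjusted p = 0.0101), and the fall was called in each of the 8 fits that left out a library. Srsf5, a splicing factor, fell by 0.66 on the log2 scale (adjusted p = 0.0269) and kept its call in 1 of the 8 fits. Rbm3 and Rbm5 did not pass, with changes of -0.04 (adjusted p = 0.917) and -0.03 (adjusted p = 0.951), and in both the sign turned when single libraries were left out.

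Of 21 genes for the synthesis of fatty acids and triglycerides, 6 rose and 0 fell, beside 1.49% and 1.41% of all genes tested. Their median change was 0.42. Thrsp (Spot 14), a regulator of fatty acid synthesis, was at 99.5 and 201 FPKM in WT and 29.8 and 70.8 FPKM in ΔRRE at CT10, and at 926 and 1028 FPKM in WT and 421 and 770 FPKM in ΔRRE at CT14. Its change was 3.21 ± 0.35 (SE; limma, adjusted p = 0.00665). Fasn, the fatty acid synthase, rose from 29.2 and 14.9 FPKM in WT and 12.3 and 10.4 FPKM in ΔRRE to 86.9 and 112 FPKM in WT and 40.3 and 92.8 FPKM in ΔRRE (2.34 ± 0.28, SE, limma, adjusted p = 0.00926). Both genes were called whichever library was left out.

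Acly, which supplies acetyl-CoA for lipid synthesis, rose by 1.17 (adjusted p = 0.0256). Mid1ip1, a partner of Thrsp, rose by 1.5 (adjusted p = 0.0278), Elovl6, which elongates fatty acids, by 1.46 (adjusted p = 0.0298) and Agpat2, which acylates lysophosphatidic acid, by 0.58 (adjusted p = 0.0406). The regulators and enzymes Srebf1 (0.75, adjusted p = 0.143), Acaca (0.63, adjusted p = 0.243) and Scd1 (0.14, adjusted p = 0.834) did not pass. The list held 3 calls without ΔRRE CT14 replicate 1 or replicate 1 of WT at either time. It held 2 without any of the other 3 ΔRRE libraries and 4 without replicate 2 of WT at either time.

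Angptl8, a secreted inhibitor of lipoprotein lipase that feeding induces, had one of the largest rises, from 15.5 and 19.3 FPKM in WT and 15.4 and 8.82 FPKM in ΔRRE to 152 and 226 FPKM in WT and 62.7 and 205 FPKM in ΔRRE. That was 3.34 ± 0.35 (SE; limma, adjusted p = 0.00507). Of 17 genes for gluconeogenesis and glycogen, 4 rose and 0 fell, with a median change of 0.12, which was 0.23 without ΔRRE CT14 replicate 1. Ppp1r3b, which targets a phosphatase to glycogen, rose from between 10.8 and 22.1 FPKM to between 74.1 and 160 FPKM (2.82 ± 0.30, SE, limma, adjusted p = 0.00552).

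Also among the 4 were Pfkfb1 (0.62, adjusted p = 0.0246), which sets the level of fructose 2,6-bisphosphate, and Pdk4 (1.81, adjusted p = 0.0345), an inhibitor of pyruvate dehydrogenase with at most 2.12 FPKM. Pdk4 acts against glucose oxidation, so the list did not move as one pathway. The gluconeogenic enzymes G6pc (0.67, adjusted p = 0.362) and Pck1 (-0.45, adjusted p = 0.467) did not pass. The list held 3 calls without ΔRRE CT14 replicate 1, 1 without ΔRRE CT10 replicate 2 and 2 without WT CT10 replicate 1, WT CT14 replicate 1 or replicate 1 of ΔRRE at CT10 or replicate 2 at CT14.

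Of 24 genes for cholesterol synthesis and uptake, 3 rose and 0 fell. Insig1, which holds SREBP precursors in the endoplasmic reticulum, rose from 98.3 and 61.1 FPKM in WT and 76.6 and 51.8 FPKM in ΔRRE to 264 and 241 FPKM in WT and 206 and 247 FPKM in ΔRRE (1.77 ± 0.18, SE, limma, adjusted p = 0.00507). Only Insig1 was called in each fit that left out a library, and it was the single call of the list without any 1 of the 4 ΔRRE libraries. The median change of the list was 0.27, which was 0.15 without ΔRRE CT14 replicate 1. It was -0.10 in WT and 0.79 in ΔRRE, a difference that was not tested for the list. Each of the 24 genes was higher in WT CT10 replicate 1 than in WT CT10 replicate 2. Hmgcs1, for example, was at 74.4 and 16.7 FPKM, and Idi1 at 51.3 and 13.1 FPKM. The part of this 1 library in the WT median was not tested. Mvd, an enzyme of the mevalonate pathway, changed by 0.89 in WT and by 3.50 in ΔRRE, a difference with an unadjusted p of 0.00188 and an adjusted p of 1 in limma.

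Other metabolic lists held few calls, and a single call says little of a list where 2.91% of all genes tested were called. Of 14 bile acid genes 1 fell, Hsd3b7 (-0.88, adjusted p = 0.0166), an early enzyme of bile acid synthesis that overlaps Gm49388 on the same strand. Of 22 genes for fatty acid oxidation, Plin5, a coat protein of lipid droplets, rose (1.08, adjusted p = 0.0203), as did Pdk4. The single members called were Fmo5 among 25 xenobiotic genes (0.81, adjusted p = 0.0151) and Nags, which makes the activator of the urea cycle, among 25 genes of amino acid catabolism (0.46, adjusted p = 0.0455). With 1 library left out, Hsd3b7, Plin5 and Fmo5 kept their call in 6 of the 8 fits, Pdk4 in 1 and Nags in 0. In limma 0 members passed among 20 respiratory chain genes (1 at an unadjusted p under 0.05), 15 antioxidant genes (2), 20 acute phase genes (3), 10 cell cycle genes (3) and 28 ribosomal protein genes (0). The acute phase genes, which are induced in inflammation, had a median change of -0.32, which was -0.55 without ΔRRE CT14 replicate 1, and 2 of 20 were above 0. The acute phase gene Saa2 was at 751 FPKM in that library and at 13.4 to 430 FPKM in the other 7.

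**Figure D4:**
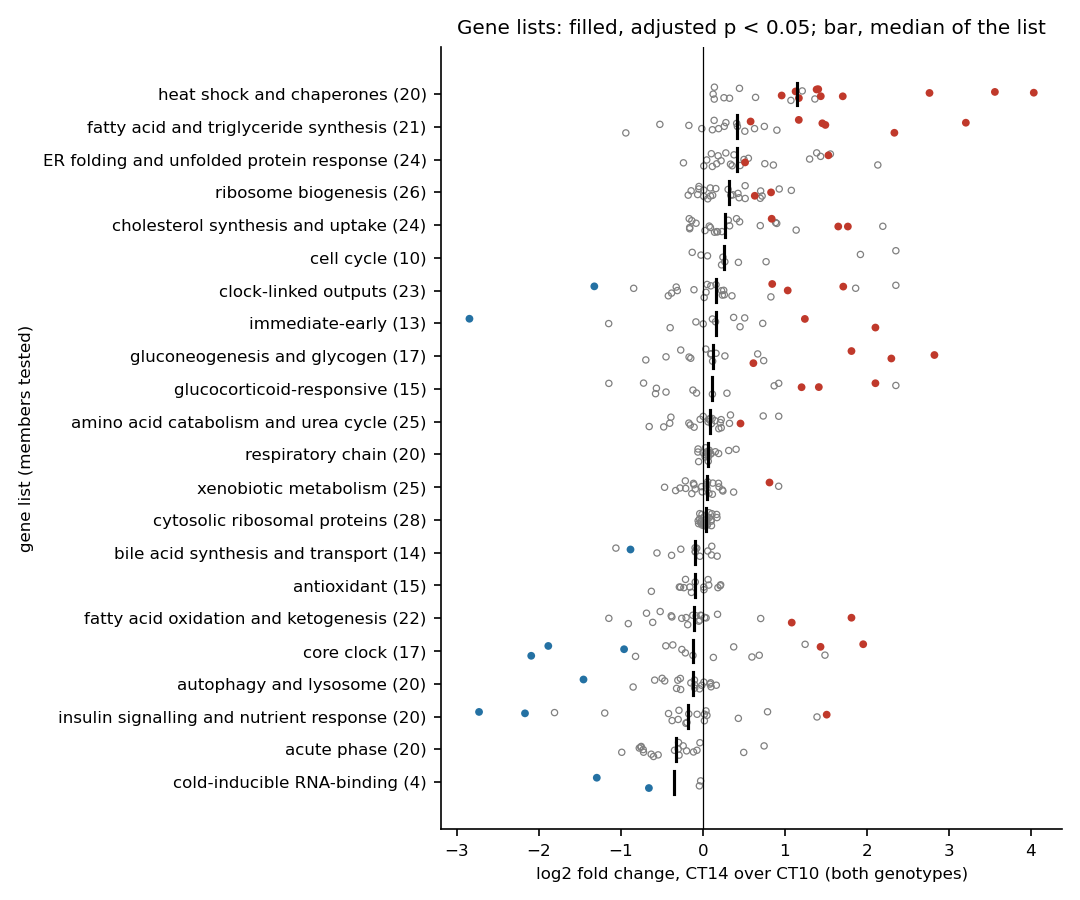
Change between CT10 and CT14 (horizontal axis, log2, CT14 over CT10) of each tested member of the gene lists (rows); red points rose and blue points fell at an adjusted p under 0.05, open points did neither, and the bar in each row is the median. The heat shock list lies wholly above 0 with a median of 1.15, and the clock list reaches from -2.09 to 1.96.

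Genes that respond within minutes to signals went both ways. Of 13 immediate-early genes tested, Dusp1 and Jun rose and Egr1 fell. Dusp1, a phosphatase of MAP kinases that glucocorticoids also induce, was at 3.08 and 3.01 FPKM in WT and 3.61 and 5 FPKM in ΔRRE at CT10. At CT14 it stood at 15.3 and 12.7 FPKM in WT and 15.4 and 21 FPKM in ΔRRE (2.1 ± 0.15, SE, limma, adjusted p = 0.00203), and the call held whichever library was left out. Jun, a subunit of AP-1, rose by 1.25 (adjusted p = 0.0211). Egr1, a zinc finger activator, fell from 6.24 and 1.66 FPKM in WT and 5.71 and 4.4 FPKM in ΔRRE to 0.358 and 0.536 FPKM in WT and 0.993 and 0.245 FPKM in ΔRRE (-2.84 ± 0.47, SE, limma, adjusted p = 0.0246), and this call held in 4 of the 8 fits.

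E-boxes (CACGTG) stood upstream of Cry1, of Dusp1 and, 19 bases before the start, of Hsph1, which all rose in the fit of both genotypes. Other genes that rose, among them Insig1, Fkbp5 and Rcan1, also had one in their window, as did genes that fell, among them Mtx3, Dyrk1b and Cpsf4l. Those of Cry1 and Dusp1 are shown as examples. These 2 lie on the minus strand of GRCm38.p6, with the E-box in capitals, 60 and 126 bases before the RefSeq start.
Cry1, chr10:85185089-85185134: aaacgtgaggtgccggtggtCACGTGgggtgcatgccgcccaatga
Dusp1, chr17:26508573-26508618: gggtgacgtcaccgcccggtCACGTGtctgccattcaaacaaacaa
The E-box was in 12.2% of the windows of all tested genes, 14.2% of those that rose and 14.4% of those that fell. A D-box (TTATGTAA or TTACGTAA, both strands) was in 0.948% of all, 1.57% of the genes that rose and 1.69% of those that fell. The cAMP response element (TGACGTCA), which is also in the printed Dusp1 stretch, was in 3.66% of all and in 3.15% and 0% of the genes that rose and fell.

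Of 15 glucocorticoid-responsive genes, 3 rose and 0 fell. Beside Dusp1 these were Fkbp5 (1.42, adjusted p = 0.0332), a co-chaperone of the glucocorticoid receptor, and Tsc22d3 (1.21, adjusted p = 0.0345), also known as GILZ. The list did not move as a whole, with 8 of 15 changes above 0. Its median was 0.12, which was 0.007 without ΔRRE CT14 replicate 1. The lowest change was that of Angptl4 (-1.14, limma, adjusted p = 0.082), which did not pass. At CT10, Fkbp5 was at 6.81 and 7.95 FPKM in WT and 15.8 and 14.6 FPKM in ΔRRE. At CT14 it was at 32.4 and 31.3 FPKM in WT and 31.1 and 20.6 FPKM in ΔRRE. The change was 2.1 in WT and 0.73 in ΔRRE, a difference with an unadjusted p of 0.00194 and an adjusted p of 1 in limma. The median of the list was 1.17 in WT and -0.25 in ΔRRE, which was not tested for the list. Replicates 1 and 2 of ΔRRE at CT14 were far apart in some members, with Mt1 at 1536 and 32.9 FPKM and Lcn2 at 205 and 2.86 FPKM. Fkbp5 and Tsc22d3 each kept their call in 1 of the 8 fits that left out a library.

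Trib3 and Chac1, which the stress factor ATF4 induces, fell. Atf4 itself did not pass (0.34, limma, adjusted p = 0.172), and neither did Asns (-0.17, adjusted p = 0.859) or Sesn2 (-0.07, adjusted p = 0.841). The stress gene Ddit3 rose, as given below, and the activity of ATF4 was not measured. Trib3, a pseudokinase that binds AKT, fell from 10.6 and 4.56 FPKM in WT and 9.21 and 3.90 FPKM in ΔRRE to 1.90 and 1.39 FPKM in WT and 1.37 and 0.949 FPKM in ΔRRE (-2.17 ± 0.34, SE, limma, adjusted p = 0.0211). Chac1, which breaks down glutathione, fell from between 0.562 and 5.09 FPKM to between 0.115 and 0.354 FPKM (-2.73 ± 0.51, SE, limma, adjusted p = 0.0304). They were the 2 falls among 20 genes of insulin signalling and nutrient response, where Ddit4, an inhibitor of mTORC1, rose (1.51, adjusted p = 0.0380). Trib3 kept its call in 4 of the 8 fits, Chac1 in 2 and Ddit4 in 0.

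Of 24 genes for folding in the endoplasmic reticulum, 2 rose and 0 fell. Ddit3 (CHOP), an activator under stress, rose by 1.53 (adjusted p = 0.0246) and overlaps Mars on the other strand, and Edem1, which sends misfolded proteins to degradation, rose by 0.52 (adjusted p = 0.0417). The median of the list was 0.42 and 23 of 24 changes were above 0. The list held 0 calls without replicate 1 of WT at either time or without either ΔRRE CT10 library, 1 without either ΔRRE CT14 library and 4 without WT CT10 replicate 2. Ddit3 kept its call in 4 of the 8 fits that left out a library and Edem1 in 0. Those of Creld2 (2.13, adjusted p = 0.0872) and Hspa5 (1.39, adjusted p = 0.0883), the HSP70 of this compartment, did not pass. Among 26 genes for ribosome biogenesis, Polr1a, a subunit of RNA polymerase I, rose by 0.83 (adjusted p = 0.0401) and Mybbp1a by 0.63 (adjusted p = 0.0345), with a median of 0.33. Both kept their call only without WT CT10 replicate 2, where the list held 6 calls, and it held 0 in the other 7 fits. Gabarapl1 was the single call among 20 autophagy genes, beside 2.91% called of all genes tested. It had 203 to 279 FPKM at CT10 and 41.5 to 123 FPKM at CT14 (-1.46, adjusted p = 0.0294), and kept its call in 3 of the 8 fits.

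Known outputs of the clock in the liver were mixed. Of 23 tested, Leo1 (1.04, adjusted p = 0.0172), Nampt (0.85, adjusted p = 0.0401), the rate-limiting enzyme of NAD salvage, and Lonrf3 (1.71, adjusted p = 0.0432) rose. Klf9, a zinc finger repressor, fell (-1.32, adjusted p = 0.0295) from between 21.9 and 40.3 FPKM to between 9.46 and 18.3 FPKM. Wee1, a kinase that delays mitosis (0.23, adjusted p = 0.639), and Usp2 (0.10, adjusted p = 0.727) did not pass. The list held 1 call without either ΔRRE CT14 library, and 0 without replicate 1 of WT at either time or without either ΔRRE CT10 library.

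The 15 largest rises also held genes outside the lists. Clic3, a chloride channel protein, rose from between 0.0694 and 0.854 FPKM to between 2.57 and 6.42 FPKM (3.73 ± 0.36, SE, limma, adjusted p = 0.00442), and Tnnc1, a troponin C, from between 0.485 and 1.26 FPKM to between 4.62 and 6.00 FPKM (2.48 ± 0.21, SE, limma, adjusted p = 0.00276). P4ha1, a collagen prolyl hydroxylase, rose by 2.35 (adjusted p = 0.0101). The histone genes Hist2h3c1 (3.71, adjusted p = 0.00926) and Hist2h3c2 (2.09, adjusted p = 0.0420) are near-identical copies, the former overlaps Gm20634 on the same strand, and their polyadenylated share was not measured. Rpl26-ps6 (3.04, adjusted p = 0.0246) is a pseudogene whose reads may be shared with its parent gene.

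Among the 15 largest falls, Fbxo21, a substrate receptor of a ubiquitin ligase, had the smallest standard error, with 1 WT library at CT10 above the other 3. It went from 55.2 and 36.4 FPKM in WT and 37.0 and 36.8 FPKM in ΔRRE to 13.2 and 10.6 FPKM in WT and 9.97 and 11.4 FPKM in ΔRRE (-1.85 ± 0.15, SE, limma, adjusted p = 0.00203). Clec2h, a C-type lectin, fell by 2.75 (adjusted p = 0.0101), and Fbxo21 and Clec2h were called in each fit that left out a library. Depp1, which is induced in fasting, fell from between 36.4 and 64.3 FPKM to between 5.19 and 31.7 FPKM (-2.32 ± 0.47, SE, limma, adjusted p = 0.0399), with 1 WT library at CT14 far above the other 3. Blm, a DNA helicase, fell by 2.16 (adjusted p = 0.0269) and Nr3c2, the mineralocorticoid receptor, by 1.67 (adjusted p = 0.0211). Obox4-ps3 (-1.68), a pseudogene, Unc93a2 (-1.85), which overlaps Gm49630 on the same strand, Meiob (-1.65) and Rapgef4os3 (-1.61) were also among the 15.

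Seen over the day, most called genes had a turning point in this window, which the choice of CT10 and CT14 favours. Of the 168 that rose, the mean was lowest at CT10 in 98 in WT and 112 in ΔRRE. It was highest at CT14 in 85 in WT and 83 in ΔRRE, and at CT18 in 52 in WT and 69 in ΔRRE. Of the 159 that fell, the mean was highest at CT10 in 88 in WT and 101 in ΔRRE, and lowest at CT14 in 79 and 83. At CT18, which this comparison did not use, the median level relative to the same CT10 libraries was 0.96 in WT and 1.12 in ΔRRE for the genes that rose, and -0.88 in WT and -0.95 in ΔRRE for those that fell (log2). Hspa1b, for example, was at 39.1 FPKM at CT14 and 16.4 FPKM at CT18 in WT, and at 40.3 and 16.5 FPKM in ΔRRE. Thrsp was at 977 and 760 FPKM in WT and at 595 and 851 FPKM in ΔRRE.

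Whether both genotypes changed alike was asked in a model with a mean for each genotype and time. Of the 11244 genes, 7524 (66.9%) had a change of the same sign in WT and ΔRRE, with r = 0.495 and rho = 0.476 across genes, which are not independent replicates. All 327 called genes had the same sign, which the call over both genotypes largely fixes. The genotypes have no library in common, so the sign of a gene picked in one can be read in the other. The pick is not fully separate, since the spread behind its p was shared over both genotypes. Of 1095 genes at an unadjusted p under 0.05 within WT, 952 (86.9%) had the same sign in ΔRRE, and of 1449 such genes within ΔRRE, 1266 (87.4%) had the same sign in WT. Among the 327, the median size of the change was 0.95 in WT and 0.993 in ΔRRE, and it was larger in WT in 126.

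**Figure D5:**
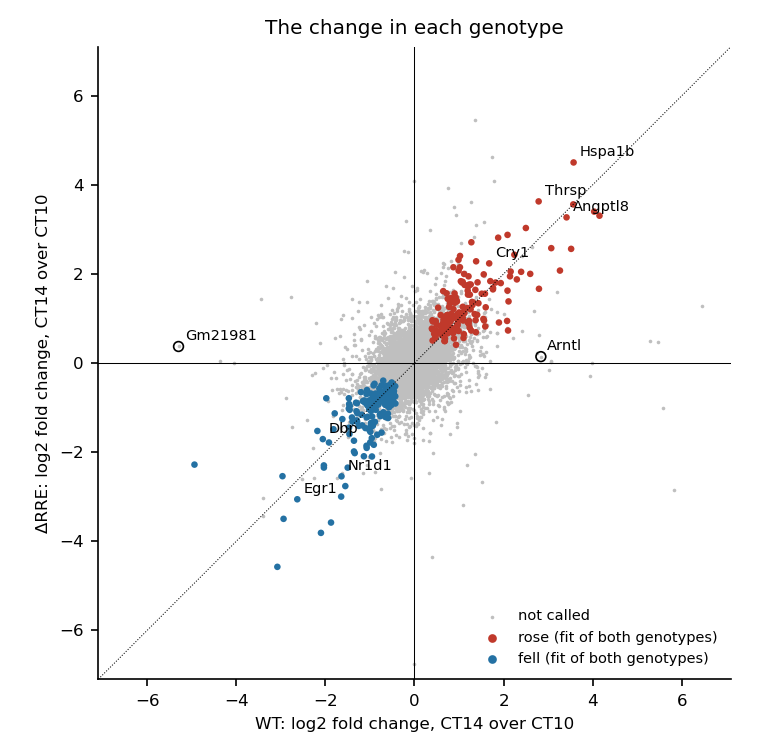
Change between CT10 and CT14 in ΔRRE (vertical axis, log2) against that in WT (horizontal axis, log2) for the 11244 genes tested; coloured points are genes called with both genotypes together the diagonal marks equal change, and circles mark Gm21981 and Arntl. Called genes lie in the quadrants of equal sign, and Gm21981 is far below 0 in WT and near 0 in ΔRRE.

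With 2 libraries an arm and this shared spread, 12 genes (0.107%) were called within WT and 12 (0.107%) within ΔRRE, and 5 were called in both. In fits of 1 genotype alone there were 15 calls in WT and 0 in ΔRRE. The 5 genes called in both with the shared spread were Chka, Dusp1, Fbxo21, Id3 and Tnnc1. Chka, the choline kinase, changed by 1.94 in WT and 1.79 in ΔRRE, and Id3, an inhibitor of helix-loop-helix factors, by 2.14 in WT and 1.95 in ΔRRE. Of the 12 genes called within WT, 11 had the same sign in ΔRRE, and of the 12 called within ΔRRE all 12 had it in WT. Fkbp5 was called within WT (2.1 ± 0.21, SE, limma, adjusted p = 0.0351) and Cry1 within ΔRRE (2.24 ± 0.25, SE, limma, adjusted p = 0.0456), with Cry1 at 1.68 in WT (adjusted p = 0.091). A call in 1 genotype alone is no difference between them, and for Cry1 the difference was 0.56 (limma, unadjusted p = 0.154).

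The test of the difference itself called 1 gene (0.00889%), Gm21981, and 337 genes (3.0%) had an unadjusted p under 0.05. Of these 337, 13 were among the 327 called over both genotypes. A single call does not show that the genotypes changed alike. Bmal1, with a change of 2.84 in WT and of 0.14 in ΔRRE, was not called by this test either. Gm21981 (ENSMUSG00000079444, chr17:47686739-47694455, minus strand, GRCm38) was at 8.10 and 9.59 FPKM in WT and 8.77 and 9.50 FPKM in ΔRRE at CT10. At CT14 it was at 0.133 and 0.121 FPKM in WT and at 12.3 and 11.4 FPKM in ΔRRE, a difference of 5.67 ± 0.28 (SE; limma, adjusted p = 0.000411). The WT mean was between 8.84 and 11.6 FPKM at the other 5 time points, so both low values belong to CT14. Gm21981 overlaps Tomm6, a subunit of the mitochondrial import pore, and Prickle4 on the same strand. Tomm6 had the opposite pattern, with 54.9 and 45.1 FPKM in WT at CT14 and 9.14 to 21.4 FPKM in the other 6 libraries, and an unadjusted p of 0.000507 (adjusted p = 1) for the difference. How reads were divided between these overlapping genes was not tested.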

How the data were processed

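Liver poly(A) RNA of 24 libraries was sequenced by the authors from directional libraries. According to the submitters' processing notes, reads were trimmed with Trimmomatic 0.39, aligned to mm10 with HISAT2 2.1.0 and quantified with StringTie 1.3.5, and the authors deposited 1 table of FPKM per library. A second table of the whole series held the same values and was not used. Groups follow the genotype, time and replicate in the labels. From the deposited FPKM, log2(FPKM + 0.1) of the 8 libraries of CT10 and CT14 went into a linear model per gene (limma version 3.58.1 under R version 4.3.3, its prior variance following the mean level) with genotype as a term, and with 4 group means for the changes within each genotype and their difference. P-values were adjusted by Benjamini-Hochberg over the 11244 genes tested. The fits were tested on simulated data. Gene positions come from GENCODE M21 (GRCm38), which held 54528 of the 54733 identifiers, and promoter windows from RefSeq (GRCm38.p6), with 8226 of the tested genes matched.

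Genes named in the text were all clock genes of the list, the 15 largest rises and falls among called genes with groups that do not overlap and an informative symbol, 4 genes of each other list by smallest p, genes with a called genotype difference, and the most abundant marker of each cell type. Other list members are named where they were called or as examples, chosen after their values were seen. Some genes that met these rules are not reported here. The gene lists were chosen with earlier results of these data known. Alternatives varied the added constant, the filter, scaling, prior, samples, threshold and replicate block, and left out each library. With FPKM alone no counting error can be given. Tables were made with Python 3.11.15, NumPy 2.4.6 and pandas 2.3.3.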

Additional observations from a re-analysis of the deposited data

Results flagged for a closer look

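Of 90 groups of 4 libraries (45 genes at CT10 and at CT14), 4 held a library far from the other 3, by Dixon's gap over the range, where chance gives about 1 in 20. Dbp at CT10 was at 58.47 FPKM in ΔRRE replicate 2 and at 100.6 to 107.8 FPKM in the others. Hsph1 at CT10 was at 10.57 FPKM in WT replicate 2 and at 4.195 to 4.917 FPKM in the others. Depp1 at CT14 was at 31.67 FPKM in WT replicate 1 and at 5.193 to 7.078 FPKM in the others. Fbxo21 at CT10 was at 55.24 FPKM in WT replicate 1 and at 36.37 to 36.99 FPKM in the others.

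The change of Gm21981 differed between the genotypes by 5.666 on the log2 scale (ΔRRE minus WT; limma, adjusted p = 0.000411), since both WT libraries at CT14 were near 0.1 FPKM.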

How the results depend on the processing

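The number of genes called depended on the processing. For both genotypes together 327 genes were called, against 75 with no filter on low values, 803 with all 24 libraries in 1 fit, 27 at an adjusted p under 0.01 and 58 to 282 when 1 library was left out. The genes called kept their direction under each of these settings, which the libraries shared between the fits largely fix. The count for the genotype difference was 1, against 2 with all 24 libraries and 1 to 3 when 1 library was left out. Within WT the count was 12, against 1 with no filter, 6 at a mean of at least 5 FPKM, 66 with all 24 libraries, 2 with a prior without trend, 1 at an adjusted p under 0.01 and 1 to 15 with 1 library left out. Within ΔRRE it was 12, against 0 with no filter, 212 with all 24 libraries, 2 with a prior without trend, 0 in a fit of ΔRRE alone, 0 at an adjusted p under 0.01 and 0 to 14 with 1 library left out. Groups did not overlap in 1388 genes, against 843 at a mean of at least 5 FPKM. Of 22 list medians, 1 moved by more than its spread without WT CT10 replicate 1 and 2 did without ΔRRE CT14 replicate 2. Rescaling by the median of ratios gave 343 calls. The cause of these shifts was not tested.

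With the replicate number as a block, 348 genes were called for both genotypes, 290 of them among the 327, with 23 within WT and 27 within ΔRRE. With the number as a block within each genotype, chosen after seeing the data, there were 353, of which 260 were among the 327. Deviations of libraries that share a number correlated with r between 0.0651 and 0.305, and not every pair was over 0.1, so the numbers were not taken to pair the libraries.

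Among named genes, none of those whose sign turned was called. S100a9 turned to 0.09752 with 1 FPKM added. With 1 library left out, the change ranged from -0.1603 to 0.06505 for Rbm3, -0.158 to 0.03552 for Rbm5, -0.1872 to 0.4129 for C1qa, -0.1546 to 0.1219 for Clec4g, -0.7816 to 0.04687 for Spp1, -0.3117 to 0.4944 for Igkc, -1.179 to 0.4082 for S100a9, -0.7292 to 0.03603 for Hbb-bs, -0.1872 to 0.325 for Cela1 and -0.8348 to 0.3125 for Car3. Each arm held 2 libraries, and with FPKM alone the precision of low values, such as those of Clic3 or Chac1, is unknown.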

Other observations

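Among the 42 genes called whichever library was left out were several regulators outside the lists, chosen here after their values were seen. Id3, an inhibitor of helix-loop-helix factors, rose by 2.04 (limma, adjusted p = 0.00203), and Rcan1, an inhibitor of calcineurin, by 1.83 (limma, adjusted p = 0.00926). Chka, which starts the synthesis of phosphatidylcholine, rose by 1.86 (limma, adjusted p = 0.00203), and Hexim1, an inhibitor of the elongation factor P-TEFb, by 1.13 (limma, adjusted p = 0.00926). Falls included Crot, a peroxisomal carnitine octanoyltransferase (-1.25, limma, adjusted p = 0.00926), Tymp, the thymidine phosphorylase (-1.13, limma, adjusted p = 0.00507), and Prkd3, a kinase activated by diacylglycerol (-1.44, limma, adjusted p = 0.00948).

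Of 20 mitochondrial transfer RNA genes tested, 6 fell and 0 rose, beside 1.41% and 1.49% of all genes tested. This set was noticed after the values were seen. The changes of the 6 lay between -0.89 (mt-Tl1) and -0.71 (mt-Tw), with mt-Ta at -0.74, mt-Tc at -0.76, mt-Tn at -0.75 and mt-Ty at -0.78. Transfer RNAs are poorly captured by poly(A) selection, and their levels here were not checked by another measure. The largest falls of all called genes were those of Gm45044 (-3.82), Gm15611 (-3.61) and Gm10804 (-3.22), whose symbols say nothing of a function.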
